A study of Mus musculus with 4 samples.

Results

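The complement system was followed through 31 genes chosen by name, all of them listed among the 17543 genes of 4 mouse liver transcriptomes. The livers compared were 2 from C57BL/6 mice carrying the K307R point mutation on both copies of Ezh2 and 2 from wild-type (WT) C57BL/6 mice, numbered as replicates 1 and 2 in each genotype. Ezh2 encodes the methyltransferase of the Polycomb complex PRC2, which marks histone H3 at lysine 27, and the comparison asks which liver transcripts differ with the mutation. The labels give no sex, age, hour of collection or litter and do not say that replicates came from separate animals, so the spread behind each p-value is that between these samples and may be technical.

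Complement is a cascade of plasma proteins made largely by hepatocytes. Recognition molecules (C1q, mannose-binding lectins, ficolins and collectins) activate serine proteases that cleave C4 and C2, factors B, D and properdin amplify the cleavage of C3, and cleaved C5 then gathers C6, C7, C8 and C9 into a pore, the membrane attack complex. Soluble and membrane-bound inhibitors check each step, and small fragments of C3 and C5 signal through receptors on myeloid cells.

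C6 and C8b, both parts of the membrane attack complex, fell in the K307R livers by edgeR's quasi-likelihood test with Benjamini-Hochberg adjustment over 12837 genes. No other member passed the threshold of 0.05 in that fit. Of the 31 members 29 had enough reads to be tested. The members lower in K307R livers were thus 2 of 29 (6.9%), against 1.47% of all genes tested, and those higher were 0 of 29, against 1.39% of all genes tested. At an unadjusted p under 0.05 there were 5 lower and 2 higher members of 29, against 8.312% lower and 8.499% higher of all genes tested, and DESeq2 and limma-voom called 0 higher. Ranked on CPM (reads scaled to the size of the library), both K307R livers lay below both WT livers for 10 members (34.5%), against 23.4% of all genes, and above them for 7 (24.1%), against 25.2%. The median log2 fold change of the 29 members was -0.04, beside 0.01 for all genes tested. By role, the medians were 0.20 over 9 initiation genes, 0.23 over 5 amplification genes, -1.63 over 6 membrane attack genes, -0.04 over 7 inhibitors and 1.39 over 2 receptors; no test compared the roles.

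**Figure D1:**
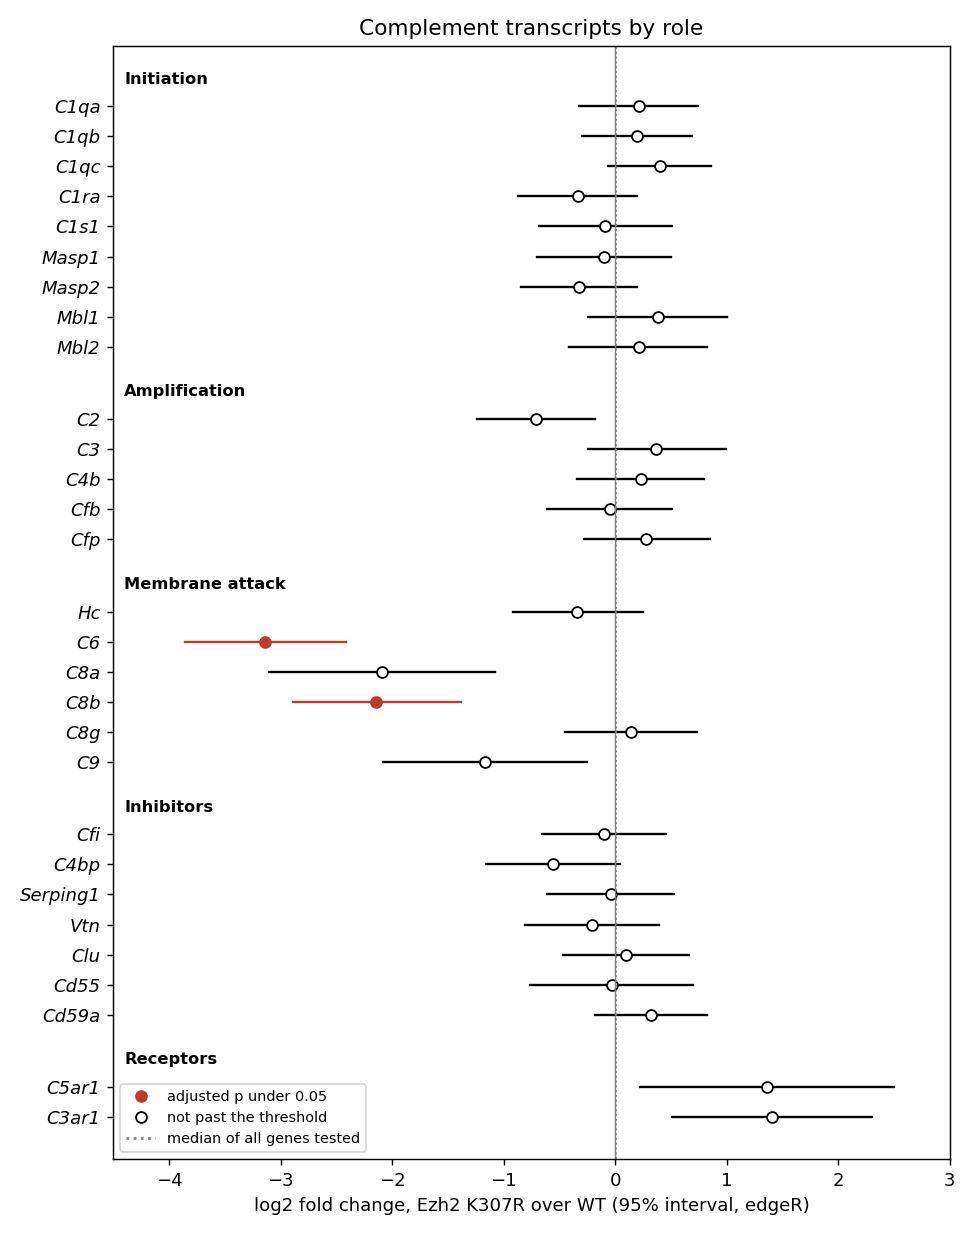
Log2 fold changes (K307R over WT, x axis) of the 29 tested complement genes, grouped by role, with 95% intervals from edgeR; filled red points passed an adjusted p of 0.05 and the dotted line is the median of all genes tested. C6 at -3.14 and C8b at -2.14 are the filled points, with C8a at -2.09 beside them.

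The libraries held between 18602928 and 20044832 expected counts. Genotype coincided with sex-chromosome transcripts: Xist had 6172 and 11201 reads in the K307R livers and 6 and 6 in the WT livers, and the Y-linked genes Ddx3y, Eif2s3y, Uty and Kdm5d had 0 reads in both K307R livers and between 223 and 1168 in the WT livers. The clock gene Arntl also separated the groups, with 232 and 463 reads in K307R livers and 19 and 25 in WT livers. Dbp, another clock gene, had 611 and 20 reads in K307R livers and 2347 and 2440 in WT livers. For Dbp the K307R livers thus also differed from each other. Effects of the mutation, of sex and of collection time therefore cannot be told apart for any complement gene. As background, blood of female laboratory mice is known to hold less terminal complement activity than that of males. That is a measure of plasma rather than of liver RNA, and the part of sex in these values was not tested. Hepatocyte identity genes were high in every liver. The FPKM (transcript level scaled to length and depth) of Alb, the albumin gene, was 47920 and 51500 in K307R livers and 43800 and 53310 in WT livers. Of 8 hepatocyte markers 0 passed edgeR's test (0 at an unadjusted p under 0.05, 0 by DESeq2). On CPM, 3 of them lay lower in both K307R livers and 0 lay higher, against 23.4% and 25.2% of all genes. Of the markers of sinusoidal endothelium (8 tested), neutrophils and monocytes (7), lymphocytes (8), cholangiocytes (5) and mesothelium (5, Krt19 shared with the cholangiocyte list), 0 were called by edgeR or DESeq2. At an unadjusted p under 0.05, 4 were higher and 1 lower, against 8.499% and 8.312% of all genes tested. By list, log2 fold changes were positive for 7 of 8 endothelial markers and 5 of 7 markers of neutrophils and monocytes. They were positive for 4 of 8 lymphocyte, 2 of 5 cholangiocyte and 0 of 5 mesothelial markers. Of 5 erythroid markers, Alas2 of heme synthesis fell (-1.94, edgeR adjusted p = 0.0277), and the 4 globin genes were higher in both K307R livers without passing edgeR's test, all at an unadjusted p under 0.05; DESeq2 called 3 of them and Alas2.

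Levels spanned from abundant plasma protein transcripts to ones near absence. On the FPKM scale, which can be set side by side between genes, 18 of the 31 members averaged at least 100 over the 4 livers, 8 lay between 3 and 100 and 5 lay under 3. C3, the central component, averaged 1562 FPKM and Vtn, encoding the pore inhibitor vitronectin, 1532 FPKM, and their ranges over the livers overlapped. C6 averaged 21.0 FPKM, the lowest of the terminal components apart from C7. At the bottom were C7 and Cfd, which were not tested. C7, which anchors the forming pore in the membrane, had 4 and 3 reads in K307R livers and 0 and 3 in WT livers. Cfd, the protease factor D known as adipsin from fat tissue, had 0 and 1 reads in K307R livers and 0 and 0 in WT livers. Of the adipocyte markers, Plin1 and Lep were not listed in any liver and Adipoq was at 0 and 0.04 FPKM in K307R livers and at 0 and 0 in WT livers; the sum of the list was 3.74 and 3.92 FPKM in K307R livers and 6.62 and 19.9 in WT livers. Most of that sum was Fabp4 (-1.98, edgeR adjusted p = 0.0755), which DESeq2 called lower.

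**Figure D2:**
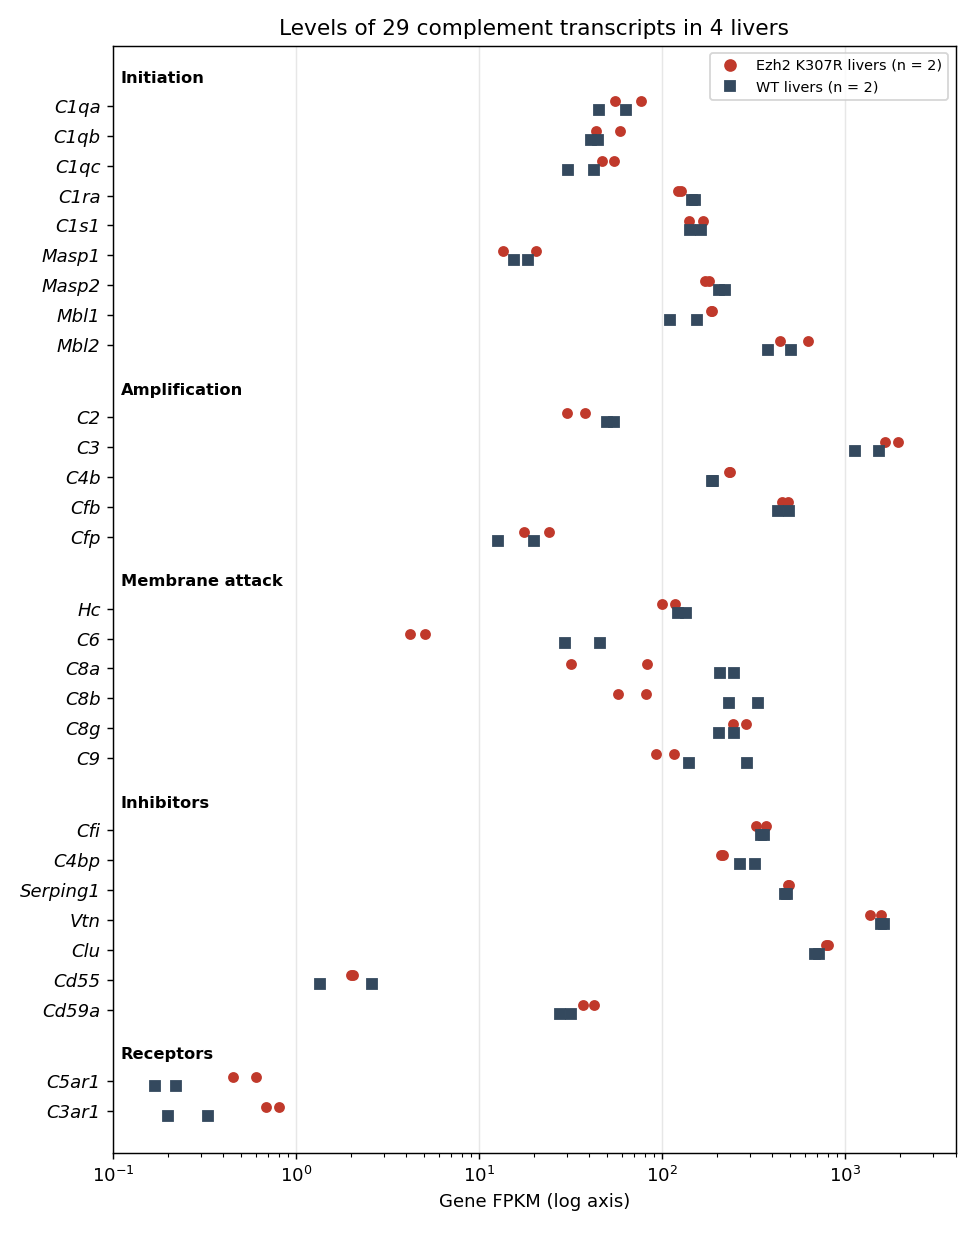
Gene FPKM (log axis) of the 29 tested members in each liver, circles for the 2 K307R livers and squares for the 2 WT livers, grouped by role. Among membrane attack genes the circles of C6, C8a, C8b, C9 and Hc lie left of the squares, those of Hc by the least, whereas those of C8g overlap them.

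Among the 9 initiation genes 0 rose and 0 fell in edgeR's test, as in DESeq2's, and 0 had an unadjusted p under 0.05. The chains of C1q, which binds antibody complexes and is known as a product of macrophages, were measured as C1qa, C1qb and C1qc. C1qa had 76.2 and 54.9 FPKM in K307R livers and 45.3 and 63.3 in WT livers. C1qb had 59.0 and 43.7 FPKM in K307R livers and 40.6 and 44.4 in WT livers. C1qc had 54.3 and 46.6 FPKM in K307R livers and 30.4 and 42.4 in WT livers. Only for C1qc did both K307R livers lie above both WT livers: its log2 fold change was 0.40 with an SE of 0.20 (adjusted p = 0.365 in edgeR). The 3 genes sit side by side on chromosome 4 (mm10, 136880126 to 136898844) and their log2 fold changes of 0.20 to 0.40 lay within each other's 95% intervals. The C1 proteases, which C1q activates, had log2 fold changes of -0.33 for C1ra (95% interval -0.87 to 0.20) and -0.09 for C1s1 (-0.68 to 0.51). C1ra and C1s1 have relatives, C1rb and C1s2, with which reads could have been divided. Those had 0 reads in the K307R livers and at most 3 in a WT liver.

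The plasma lectins that start the lectin pathway on microbial sugars did not pass the test. Mbl1 had 186 and 186 FPKM in K307R livers and 155 and 110 in WT livers, groups that did not overlap (log2 fold change 0.38, adjusted p = 0.537 in edgeR). Its value was 0.79 without WT replicate 1 and 0.05 without WT replicate 2. Mbl2 had 624 and 442 FPKM in K307R livers and 380 and 503 in WT livers, which overlapped. The lectin proteases Masp1 and Masp2 had log2 fold changes of -0.10 (95% interval -0.70 to 0.50) and -0.32 (-0.84 to 0.20). Masp2 was counted on a long transcript (NM_001003893, 3061 bases) and a short one (NM_010767, 744 bases); the gene is known to make the protease and a short form without the protease domain. The short transcript took 32.9% and 35.9% of the gene's expected counts in K307R livers and 36.9% and 35.3% in WT livers, so the shares overlapped between genotypes.

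Some recognition molecules outside the 31 members passed the test. Of 34 further complement genes, listed as initiators, regulators and receptors, 31 were in the tables and 25 were tested. Of these 25, 10 lay higher in both K307R livers on CPM and 3 lay lower, against 25.2% and 23.4% of all genes. Their median log2 fold change was 0.24, beside 0.01 for all genes tested. In edgeR's test 3 of the 25 rose and 0 fell, against 1.39% and 1.47% of all genes tested. All of these rises were lectin pathway recognition genes, whereas the pentraxins Crp (0.18, edgeR adjusted p = 0.7955) and Apcs (0.27, 0.633), which can also engage complement, did not pass. Fcna, the ficolin A gene, had 34.6 and 21.7 FPKM in K307R livers and 9.31 and 7.86 in WT livers. Colec11, the collectin-11 gene, had 21.4 and 17.9 FPKM in K307R livers and 4.48 and 8.88 in WT livers. Colec10, the collectin-10 gene, had 5.93 and 4.13 FPKM in K307R livers and 1.23 and 2.11 in WT livers. In each, both K307R livers lay above both WT livers. The log2 fold changes were 1.62 for Fcna (SE 0.29, edgeR adjusted p = 0.0341), 1.5 for Colec11 (SE 0.28, 0.0354) and 1.54 for Colec10 (SE 0.28, 0.0346). Each of these calls was lost without K307R replicate 1, with adjusted p values of 0.0672 for Fcna, 0.0814 for Colec11 and 0.0933 for Colec10 in edgeR. With limma on log2(FPKM + 1) Fcna was called, whereas Colec10 (0.0876) and Colec11 (0.0776) were not, and with total-count scaling in edgeR Colec11 was not called (0.0556). The summed FPKM of 8 stellate and mesenchymal markers was 121 and 93.2 in K307R livers and 40.3 and 74.9 in WT livers, with Dcn higher (1.36, edgeR adjusted p = 0.0348) and Col1a1 lower (-2.48, 0.0365). Without Dcn the sum was 23.2 and 18.9 in K307R livers and 15.5 and 34.9 in WT livers, which overlapped, and Col3a1 also lay lower (-1.62, edgeR adjusted p = 0.0510). Of the 8 markers 6 had a positive log2 fold change. At an unadjusted p under 0.05, 4 were higher and 2 lower, against 8.499% and 8.312% of all genes tested. DESeq2 called Dcn, Lrat (1.28, edgeR adjusted p = 0.0792) and Rgs5 (1.17, 0.151) higher and Col1a1 and Col3a1 lower. The 10 Kupffer cell markers summed to 263 and 170 FPKM in K307R livers and 109 and 142 in WT livers, with 9 log2 fold changes positive and 1 negative. The part of either set of markers in the lectin values was not tested.

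**Figure D3:**
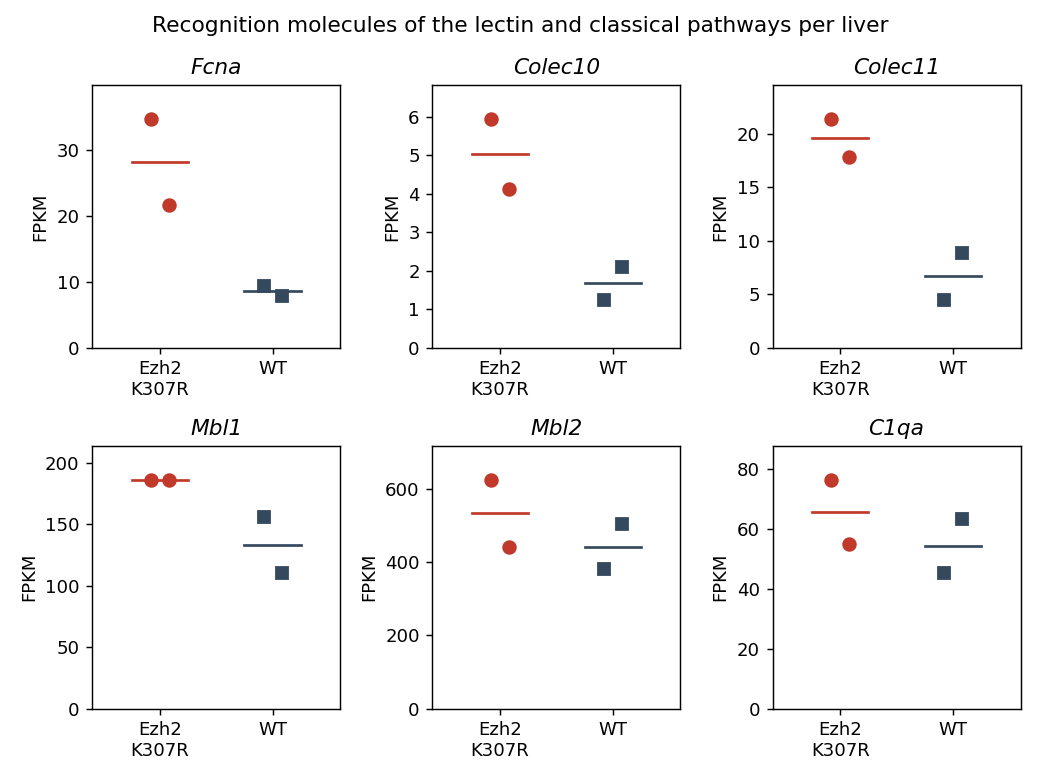
FPKM per liver (points) and genotype mean (bars) of 6 recognition molecules, K307R left and WT right in each panel. Fcna, Colec10 and Colec11 do not overlap between genotypes and passed the test; Mbl1, Mbl2 and C1qa did not pass it.

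Of the 6 amplification genes 5 were tested, of which 0 rose and 0 fell in edgeR's test, as in DESeq2's; 1, C2, had an unadjusted p under 0.05. C2, whose product joins C4 in the classical C3 convertase, had 37.8 and 30.1 FPKM in K307R livers and 54.4 and 49.9 in WT livers. Both K307R livers were the lower ones, and the log2 fold change was -0.71 (95% interval -1.24 to -0.18), with an edgeR adjusted p of 0.167. C3 had 1656 and 1946 FPKM in K307R livers and 1123 and 1523 in WT livers. C4b, the liver C4 gene, had 232 and 234 FPKM in K307R livers and 186 and 188 in WT livers. Both were higher in each K307R liver than in either WT liver, by 0.37 for C3 (adjusted p = 0.540 in edgeR) and 0.23 for C4b (0.704) on the log2 scale. Reads of C4b could have been divided with its near-identical copy C4a, which held 95 and 69 reads in K307R livers and 94 and 41 in WT livers. Cfb, encoding factor B of the alternative pathway convertase, lies beside C2 on chromosome 17 and overlapped between the genotypes (488 and 451.5 FPKM in K307R livers, 430.5 and 492 in WT livers). Cfp, the X-linked gene of properdin, which stabilises that convertase, overlapped too (23.9 and 17.5 FPKM in K307R livers, 12.7 and 20.0 in WT livers).

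Of the 6 membrane attack genes tested 2 fell and 0 rose, and 5 lay lower in both K307R livers than in either WT liver. Over all genes tested, edgeR called 1.47% lower and 1.39% higher, and 23.4% lay lower in both K307R livers on CPM. C6, C7, the C8 alpha and beta chains and C9 share the pore-forming MACPF domain, while C5 (gene Hc) is a relative of C3 and the C8 gamma chain is a lipocalin. The 4 MACPF genes tested had log2 fold changes of -3.14 to -1.17, with both K307R livers below both WT livers in each. Of these 4 genes, 2 passed the test. They are grouped here with their values known, and no test compared them with Hc and C8g. Their summed FPKM, C7 included, was 186 and 285 in K307R livers and 913 and 608 in WT livers. In bulk liver, fewer cells of a type and less RNA per cell cannot be told apart.

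C6 lies on chromosome 15 (mm10, 4727067 to 4804045). It had 224 and 273 reads in K307R livers and 2538 and 1700 in WT livers, or 4.17 and 5.05 FPKM in K307R livers and 45.55 and 29.4 FPKM in WT livers. Both K307R livers were far below the lower WT liver. The means were 4.61 ± 0.622 FPKM in K307R livers and 37.5 ± 11.4 FPKM in WT livers (SD, n = 2 each), and the log2 fold change of C6 was -3.14 (SE 0.31, 95% interval -3.86 to -2.41, edgeR adjusted p = 0.00384). Its fold change was -2.64 without WT replicate 1 and -3.51 without WT replicate 2, and it passed the test whichever liver was left out. With limma on log2(FPKM + 1) and no filter on low genes, no gene in the tables was called, and the adjusted p was 0.116 for C6 and 0.1635 for C8b.

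C8b and C8a, the beta and alpha chains, are neighbours on chromosome 4 (104766317 to 104804548 and 104815679 to 104876487), 11131 bases apart. C8b had 57.6 and 81.0 FPKM in K307R livers and 333 and 231 in WT livers. C8a had 31.8 and 82.6 FPKM in K307R livers and 246 and 207 in WT livers. K307R replicate 1 was the lowest liver for both genes, and no K307R liver reached a WT liver. For C8b it was -2.14 on the log2 scale (SE 0.33, adjusted p = 0.0189 in edgeR); without K307R replicate 1 it was -1.93 and no longer passed (0.0597). C8a had -2.09 (SE 0.44, 95% interval -3.10 to -1.08), just outside the threshold at an edgeR adjusted p of 0.0513. It passed without WT replicate 1 (0.0153), WT replicate 2 (0.0034) or K307R replicate 2 (0.0103), and the value was -2.91 in that last fit and -1.57 without K307R replicate 1. DESeq2 and limma-voom called C8a as well, as did edgeR with RLE scaling (0.0498) or no filter (0.00211). In edgeR it did not pass with total-count scaling (0.0541), a filter at a mean of 1 CPM (0.0591) or the replicate number as a block (0.0636). Nor did it pass with limma on log2(FPKM + 1) (0.0749) or log2(FPKM + 0.1) (0.0771). C8a was counted on several transcripts; the longest, NM_146148, took 33.7% and 51.5% of the gene's expected counts in K307R livers and 44.0% and 37.8% in WT livers, with no separation of the genotypes.

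C8g, the gamma chain that completes C8, lies on chromosome 2 (25498650 to 25501777) and had 285.5 and 244 FPKM in K307R livers and 246 and 205 in WT livers, which overlapped, with a log2 fold change of 0.14 (95% interval -0.45 to 0.73). In FPKM, C8g was 8.98 and 2.95 times C8a in the K307R livers, against 1.001 and 0.988 times in the WT livers. It was 4.95 and 3.01 times C8b in the K307R livers, against 0.740 and 0.887 times in the WT livers. The levels of the 3 C8 chains thus lay closer together in the WT livers than in the K307R livers, a description with no test.

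C9, which forms most of the pore wall, had 92.4 and 116.5 FPKM in K307R livers and 289 and 140 in WT livers. WT replicate 1 stood well above the other 3 livers. The log2 fold change was -1.17 (SE 0.40, 95% interval -2.08 to -0.25, edgeR adjusted p = 0.188). It was -0.39 without WT replicate 1 and -1.67 without WT replicate 2, where it passed the test (0.00332). DESeq2 called it over all 4 livers (adjusted p = 0.0155). Hc, which encodes C5, had 99.9 and 117 FPKM in K307R livers and 135 and 122 in WT livers, with a log2 fold change of -0.34 (95% interval -0.92 to 0.25). Set against C6, Hc was 23.95 and 23.1 times as high in the K307R livers and 2.96 and 4.14 times in the WT livers, on the FPKM scale.

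**Figure D4:**
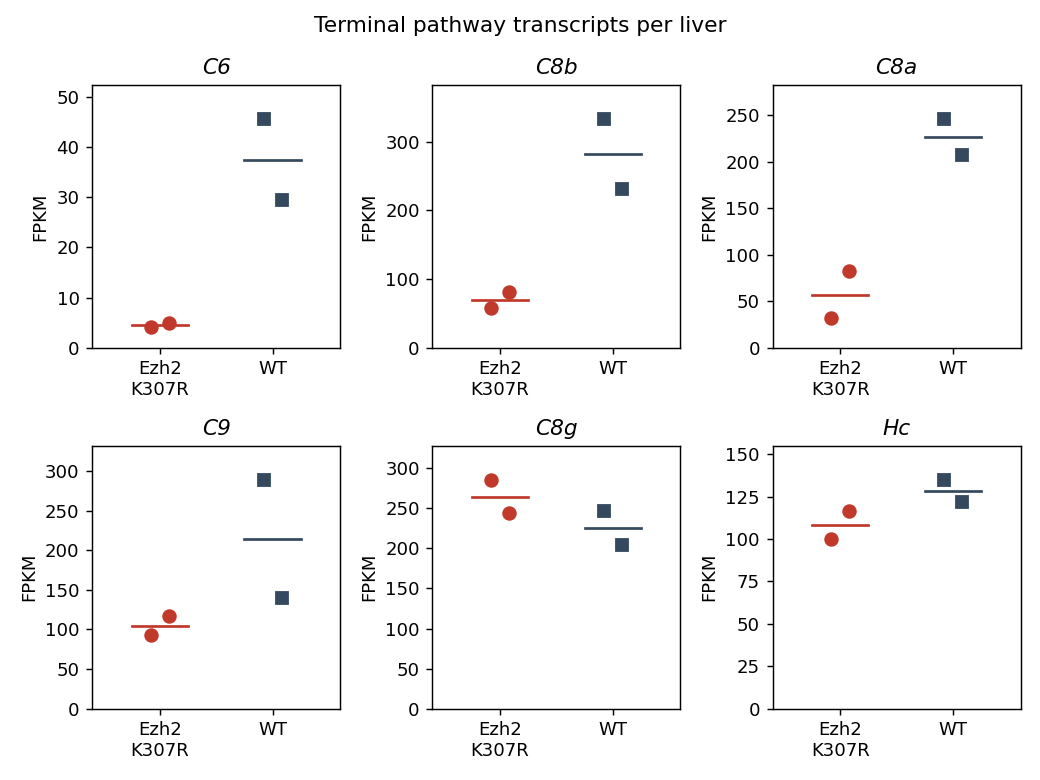
FPKM per liver (points) and genotype mean (bars) of 6 terminal pathway genes, K307R left and WT right in each panel. C6, C8b, C8a, C9 and Hc are lower in both K307R livers; C8g overlaps, with 285.5 and 244 FPKM in K307R livers and 246 and 205 in WT livers.

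Genes around these loci were not called by edgeR. Within 500 kb of C6, C8b, C8a and C9 lie 15 other protein-coding genes that are not members, of which 11 were tested and 0 passed edgeR's test. At an unadjusted p under 0.05 there were 3: Prkaa2 and Fyb2 lower and Plpp3 higher (0.56, edgeR adjusted p = 0.261). The shares over all genes tested were 8.312% lower and 8.499% higher. DESeq2 called 2, Prkaa2 and Fyb2. The nearest to the threshold were beside C8a. Prkaa2, a catalytic subunit of the energy sensor AMPK, had 7.32 and 8.19 FPKM in K307R livers and 14.6 and 12.9 in WT livers (log2 fold change -0.92, edgeR adjusted p = 0.0669). Fyb2 had 53 and 87 reads in K307R livers and 126 and 280 in WT livers (-1.50, 0.0813). The RefSeq span of Fyb2 (104835301 to 105016864) overlaps C8a, and no source used here says whether reads were counted by strand, so reads of the pair are uncertain. C8a held at least 2133 reads in each liver.

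The promoters of the 4 MACPF genes that were tested are shown because these genes lay lower together. They run from 250 bases before to 50 after the listed start, from RefSeq (GRCm38.p6), 5′ to 3′ on the gene's strand. For C6 and C8a that start lies inside the gene span given above, and distances are counted from the listed start. Capitals mark matches to TTCNNNGAA (the STAT motif), TTGCNNAA (the C/EBP motif) or ATCAAT (the ONECUT motif), searched on both strands; none of these matches overlapped another. They were C6 at chr15:4726960-4727259 (plus strand), C8b at chr4:104766067-104766366 (plus), C8a at chr4:104876349-104876648 (minus) and C9 at chr15:6445096-6445395 (plus).
C6: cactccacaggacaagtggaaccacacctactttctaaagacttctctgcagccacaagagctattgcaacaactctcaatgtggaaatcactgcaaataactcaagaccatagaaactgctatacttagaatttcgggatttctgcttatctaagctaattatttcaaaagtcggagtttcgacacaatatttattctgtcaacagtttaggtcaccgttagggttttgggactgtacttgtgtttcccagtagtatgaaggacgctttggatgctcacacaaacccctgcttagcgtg
C8b: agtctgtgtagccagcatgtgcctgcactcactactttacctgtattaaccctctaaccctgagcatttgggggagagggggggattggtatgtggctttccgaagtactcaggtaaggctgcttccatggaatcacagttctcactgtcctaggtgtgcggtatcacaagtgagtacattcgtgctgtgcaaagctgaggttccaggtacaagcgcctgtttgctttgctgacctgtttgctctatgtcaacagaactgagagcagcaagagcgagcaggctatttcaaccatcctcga
C8a: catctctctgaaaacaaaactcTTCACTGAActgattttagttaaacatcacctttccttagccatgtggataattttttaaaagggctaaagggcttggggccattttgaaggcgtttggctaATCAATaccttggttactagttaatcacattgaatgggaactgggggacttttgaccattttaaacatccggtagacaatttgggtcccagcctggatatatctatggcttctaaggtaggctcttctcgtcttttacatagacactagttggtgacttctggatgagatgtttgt
C9: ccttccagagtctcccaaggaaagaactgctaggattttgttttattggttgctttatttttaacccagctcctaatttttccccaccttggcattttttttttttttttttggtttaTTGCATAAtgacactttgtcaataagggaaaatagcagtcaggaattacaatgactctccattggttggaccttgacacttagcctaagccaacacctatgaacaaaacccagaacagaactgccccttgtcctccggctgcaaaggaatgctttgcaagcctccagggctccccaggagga

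No motif match was found in these windows of C6 and C8b, the genes that passed the test. C8a had a STAT match starting 228 bases before the start and an ONECUT match 126 bases before it, and C9 a C/EBP match 132 bases before it. Of 23 members with a listed promoter (25 windows), 5 held the STAT motif in any window, 4 the C/EBP motif and 1 the ONECUT motif. Over all 32851 promoter windows the shares were 8.30% for the STAT motif, 10.8% for C/EBP and 7.54% for ONECUT. These shares are per window, whereas the members were counted per gene. A match describes letters only.

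Among the 7 inhibitors 0 rose and 0 fell in edgeR's test, as in DESeq2's, and 0 had an unadjusted p under 0.05. C4bp, whose product dismantles the classical convertase, had 209 and 216 FPKM in K307R livers and 320 and 264 in WT livers. These groups did not overlap, and the log2 fold change was -0.56 (95% interval -1.16 to 0.04, edgeR adjusted p = 0.327). Serping1, the C1 inhibitor gene, had 486 and 491 FPKM in K307R livers and 478 and 468 in WT livers, with an interval of -0.61 to 0.53. Cfi, encoding the protease factor I that cuts C3b, had an interval of -0.66 to 0.46. The pore inhibitors in plasma were abundant: Vtn had 1571 and 1359 FPKM in K307R livers and 1563 and 1635 in WT livers, and Clu, the clusterin gene, 780 and 806 in K307R livers and 679 and 721 in WT livers. Their log2 fold changes of -0.21 (-0.81 to 0.39) and 0.10 (-0.47 to 0.66) did not pass the test.

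Of the membrane-bound inhibitors, Cd59a, which stops C9 from joining the pore, had 42.2 and 36.9 FPKM in K307R livers and 31.8 and 27.5 in WT livers (log2 fold change 0.32, edgeR adjusted p = 0.521). Cd55, which speeds the decay of convertases, was near 2 FPKM, with 1.98 and 2.03 in K307R livers and 1.35 and 2.58 in WT livers. The WT livers bracketed both K307R livers. Both genes have close copies that could have taken some reads: Cd59b had 46 and 39 reads in K307R livers and 21 and 30 in WT livers, and Cd55b had 0 and 0 in K307R livers and 1 and 3 in WT livers.

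Both receptors were rare transcripts, higher in each K307R liver than in either WT liver, and neither passed the test in edgeR or DESeq2, though both had an unadjusted p under 0.05. C3ar1, the receptor of the C3 fragment, had 65 and 56 reads in K307R livers and 17 and 29 in WT livers. C5ar1, the receptor of the C5 fragment, had 28 and 21 reads in K307R livers and 8 and 11 in WT livers. Their log2 fold changes were 1.41 (95% interval 0.51 to 2.30, edgeR adjusted p = 0.111) and 1.36 (0.22 to 2.5, 0.216). Vsig4, the Kupffer cell receptor for C3 fragments, named here after its values were seen, had 28.9 and 18.1 FPKM in K307R livers and 8.07 and 10.9 in WT livers (1.24, edgeR adjusted p = 0.0550; DESeq2 called it). Most Kupffer cell markers lay the same way: the summed FPKM of 10 markers was 263 and 170 in K307R livers and 109 and 142 in WT livers. Of the 10, 9 had a positive log2 fold change, with 0 past the threshold in edgeR. Marco was negative (-0.29), with 7.21 and 3.62 FPKM in K307R livers and 2.29 and 10.9 in WT livers. At an unadjusted p under 0.05, 5 were higher and 0 lower, against 8.499% and 8.312% of all genes tested. DESeq2 called 1, Lyz2. Clec4f, a defining Kupffer cell marker, had 33.8 and 23.1 FPKM in K307R livers and 21.7 and 21.55 in WT livers. On CPM its genotypes overlapped (log2 fold change 0.31, edgeR adjusted p = 0.572). Of the 10 markers, 6 lay higher in both K307R livers on CPM, against 25.2% of all genes. The part of these markers in the receptor values was not tested.

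Of 18 genes of signalling and transcription that act on complement genes, 0 passed edgeR's test. At an unadjusted p under 0.05 there were 2 lower and 1 higher, against 8.312% lower and 8.499% higher of all genes tested. DESeq2 called 2, Cebpb and Il1r1. The smallest p values were those of Cebpb, an acute-phase transcription factor (-1.27, edgeR adjusted p = 0.0515), Il1r1, the interleukin-1 receptor (-1.03, 0.0678), Stat5b, the growth hormone signal transducer (0.82, 0.116), and Il6st, the shared receptor of interleukin-6 cytokines (0.54, 0.299). Cebpb had 21.8 and 38.3 FPKM in K307R livers and 62.0 and 74.9 in WT livers. Among 15 acute-phase genes, which respond to inflammation together with several complement genes, 1 fell and 0 rose in edgeR's test, with a median log2 fold change of -0.21. Over all genes tested edgeR called 1.47% lower and 1.39% higher. At an unadjusted p under 0.05, 5 were lower and 0 higher, against 8.312% and 8.499% of all genes tested. DESeq2 called 4 lower (Hp, Hpx, Orm2 and Saa1), and 4.23% of 17483 genes in either direction. The gene that fell was Saa1, a serum amyloid A gene, with 33.7 and 25.7 FPKM in K307R livers and 56.5 and 75.85 in WT livers (-1.22, SE 0.22, edgeR adjusted p = 0.0341); without K307R replicate 2 it was not called (-1.02, 0.123), nor with total-count scaling (0.0592) or with limma on log2(FPKM + 1) (0.0789) or log2(FPKM + 0.1) (0.0809). Saa1 has a close copy, Saa2, at -0.28 (edgeR adjusted p = 0.636), with which reads could have been divided.

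**Figure D5:**
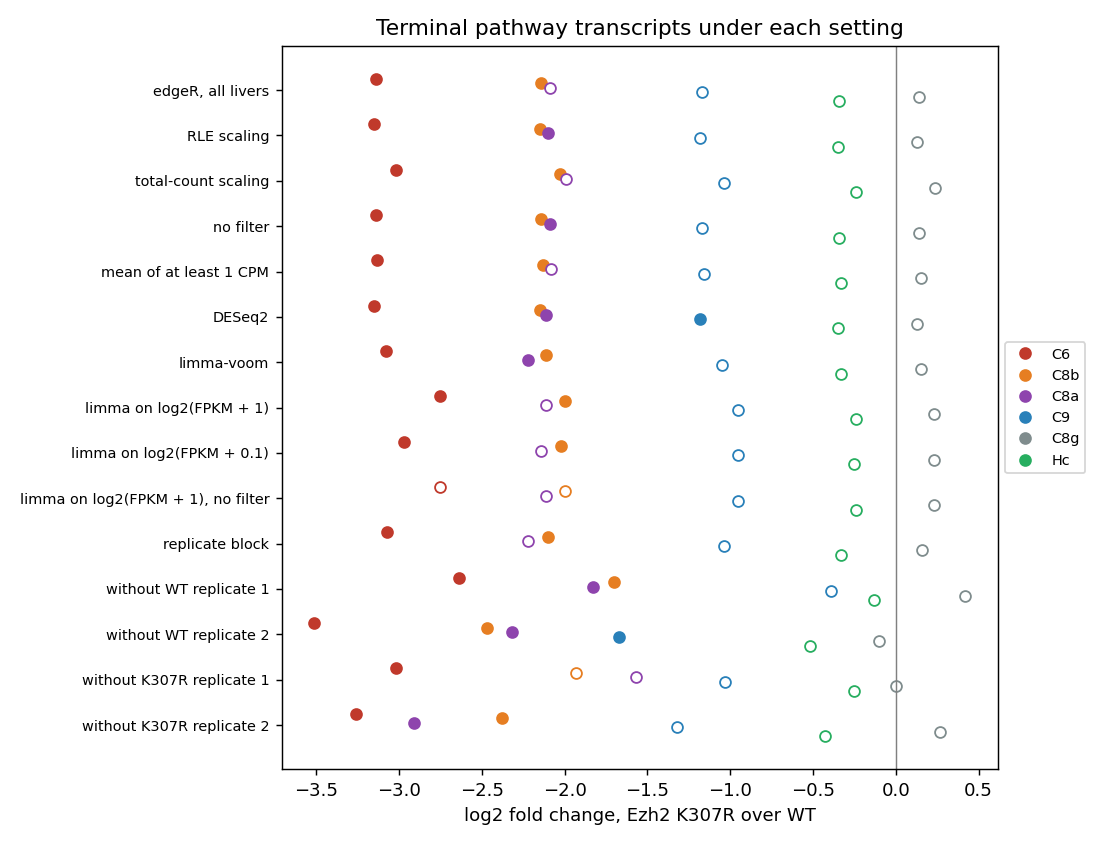
Log2 fold changes (K307R over WT, x axis) of 6 terminal pathway genes under the edgeR fit of all livers and 14 other settings (rows); filled points had an adjusted p under 0.05. C6 lies between -3.51 and -2.64 in every setting shown, while C9 moves between -1.67 and -0.39 as single WT livers are left out.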

How the data were processed

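Every liver came with its own table, listing RefSeq transcripts beside Entrez gene numbers. The expected counts, estimated reads per transcript, were left unnormalized by the authors, per the file headers. The FPKM were scaled to length and depth by the authors, per the file headers. Per the submitters' processing notes, the tools were RSEM, Bowtie2 and HISAT and the build mm10 (versions and roles: not given in the sources used here). RNA was extracted with TRIzol from frozen liver and libraries followed BGI protocols, per the labels' protocols.

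Expected counts were summed per gene and rounded, and FPKM were summed per gene. Symbols and coordinates came from RefSeq's GRCm38.p6 gene table (the assembly of mm10), which named 17502 of 17543 genes. edgeR 4.0.16 (R 4.3.3) fitted genotype with TMM factors and filterByExpr, on 2 residual degrees of freedom, with a biological coefficient of variation of 0.217; standard errors and 95% intervals were computed from each fold change with its F statistic. Errors on levels are SDs over 2 livers. An exact permutation test of 2 livers against 2 cannot go below p = 0.333 (two-sided), so none was run.

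Other settings used limma 3.58.1 and DESeq2 1.42.0. Members, roles and lists were chosen with earlier results of these data known. Named were all members and the further complement genes past the threshold. From the regulators and acute-phase genes, those past it or the 4 with the smallest p were named. The chosen neighbours, Dcn and Col1a1 fall outside this rule and were picked after their values were seen. So were C4a, C1rb, C1s2, Cd55b, Cd59b and Saa2 as copies of named genes, and Vsig4, Crp, Apcs, Hp, Hpx and Orm2. Among the markers, so were Lyz2, Clec4f, Marco, Alb, Alas2, Fabp4, Col3a1, Lrat and Rgs5. The sex-chromosome genes and Arntl were named as values that move with genotype, and Dbp was picked after its values were seen.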

Additional observations from a re-analysis of the deposited data

How the results depend on the processing

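Complement members lower in K307R livers numbered 2 in the edgeR fit and between 1 and 4 when single livers were left out; members higher numbered 0 under each of the 14 alternatives. DESeq2 called 4 lower (C6, C8a, C8b and C9). With limma on log2(FPKM + 1) and no filter 0 members, 0 of the further complement genes and 0 genes in all were called, although 2205 genes had an unadjusted p under 0.05 there. Further complement genes called numbered 3, and 1 with limma on log2(FPKM + 1) or log2(FPKM + 0.1), and 2 with total-count scaling; leaving out single livers gave 0 to 4. Genes called in all numbered 367, and 829 with no filter, 739 with DESeq2, 163 on log2(FPKM + 1), 161 on log2(FPKM + 0.1) and 211 to 720 without single livers. The cause of these differences was not tested. With total-count scaling the split of all calls was 188 higher and 124 lower, against 178 and 189.

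Replicate numbers do not pair the livers by the labels, and the deviations of same-numbered livers correlated at -0.0027; with the replicate number as a block 2 members were lower (C6 and C8b), 347 genes were called in all, and Colec10 was not called (edgeR adjusted p = 0.0556).

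Signs turned under these alternatives only for members with small log2 fold changes, none of them called; where a liver was left out, the range over the 4 such fits is given. C1s1 was at 0.00 with total-count scaling and in the 3 FPKM fits, 0.15 without WT replicate 1 and 0.05 without K307R replicate 2 (range -0.29 to 0.15). Cd55 was at 0.02 with total counts, 0.05, 0.09 and 0.05 in the FPKM fits, 0.01 with the block and 0.35 without WT replicate 2 (-0.33 to 0.35). Cfb was at 0.03 with total counts, in the FPKM fits and without K307R replicate 2 (-0.13 to 0.03). Serping1 was at 0.05 with total counts and in the FPKM fits and at 0.10 without WT replicate 1 (-0.17 to 0.10). Masp1 was at 0.16 without WT replicate 1 and 0.15 without K307R replicate 1 (-0.40 to 0.16), and C8g at -0.10 without WT replicate 2 (-0.10 to 0.42). Without K307R replicate 1, C1qa (-0.07 to 0.45), C1qb (-0.06 to 0.42) and Mbl2 (-0.09 to 0.45) took the lower of these values. Cfi was at 0.01 without K307R replicate 2 (-0.21 to 0.01). Without a liver, the lone liver of its genotype is assumed to vary as the others do.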
